A study of Mus musculus with 8 samples.

Results

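The oxygen-sensing set held 10 of the 24421 genes in the deposited count table, chosen by name. They were the hypoxia-inducible factor (HIF) subunits Hif1a, Epas1, Hif3a and Arnt, the prolyl hydroxylases Egln1 and Egln3, the ubiquitin ligase subunit Vhl, and the target genes Slc2a1, Pfkfb3 and Vegfa. All 10 were found in the table, and all 10 passed the filter on low counts that left 17328 genes for testing. The list was drawn up when earlier results of these data were known, and in those results Hif3a and Pfkfb3 were already higher 3 days after the injection than before it. The 3d against 0d values of these genes are therefore a description, and no support is drawn from them. Comparisons of 3d with 1d and 30d use the same 3d libraries, so their p-values for Hif3a and Pfkfb3 are not independent of that choice and describe these libraries. The gene lists set beside the members were also chosen with earlier results known, so their counts are a description as well.

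RNA was sequenced from dorsal root ganglia (DRG), the clusters of sensory neurons and glia beside the spinal cord, of wild-type (WT) C57BL/6J mice aged 8 weeks. That age is the one given with the samples. The study's methods describe males of an age range that starts at 8 weeks, with no age at collection for each group. Mice of the 0d group were naive and received no injection, so the handling and the needle cannot be told apart from carrageenan in any comparison with 0d. The 1d, 3d and 30d groups were taken 1, 3 and 30 days after 20 µL of 1% carrageenan, a seaweed polysaccharide that inflames tissue, had been injected into the left hind paw. Each group had 2 libraries, and each library pooled the L3 to L5 ganglia of 2 to 3 mice, so the spread between libraries is one between pools.

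Cells sense oxygen through enzymes that mark HIF alpha subunits while oxygen is plentiful. The prolyl hydroxylases encoded by the Egln genes hydroxylate these subunits, the Vhl protein then recognises them, and they are degraded. When oxygen is scarce the alpha subunits persist, pair with the Arnt protein on DNA and raise the transcription of genes for glucose uptake, glycolysis and vessel growth. Much of this control acts on protein, which was not measured here. Sensory ganglia have a dense blood supply, and their neurons draw on glucose.

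The libraries held 44123208 to 73580338 counts. DRG neurons are given as the cell type in the labels, but no sort of the dissected ganglia is described and the markers were those of a whole ganglion. The 13 sensory neuron markers summed to between 14729 and 15847 CPM (counts scaled to library size by TMM), led by Nefh at a mean of 3401 CPM. The satellite glia gene Apoe had a mean of 2117 CPM. Among the cell type lists reported here, replicate 1 at 30d stood apart in the red blood cell and adipocyte lists. Its red blood cell genes summed to 515 CPM against 141 to 282 CPM in the other libraries, and its adipocyte markers to 48.3 CPM against 8.30 to 23.3 CPM. In a whole ganglion, fewer cells of a type and less RNA in each cell cannot be told apart.

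The DNA before the starts of the genes bears on which of them carry the letters that HIF dimers are known to bind. The core of that motif is ACGTG or GCGTG. Both were searched on both strands in the 250 bases before each start in the RefSeq promoter table (GRCm38.p6, the build called mm10 in the count table), and the palindrome CACGTG counts on both strands. Of 32851 promoter windows, 12679 (38.6%) held a match. Of the 12728 tested genes with a window, 57.1% held a match in at least 1 window, and of the 9 listed genes with a window 8 did, so a match is common and marks no site of binding. Epas1 had no window in the table. Vhl and the first Vegfa window had no match, which says only that these letters were not in those windows.

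The windows of Hif3a and Pfkfb3 are shown because these are the members whose levels differed most between time points, with matches in capitals, each written 5′ to 3′ on the strand of its gene. The Hif3a window (chr7:17062428-17062677, minus strand) held GCGTG on each strand, 230 and 186 bases before the start. Pfkfb3 has a start at each of 2 places. The window of the outer start (chr2:11553930-11554179, minus strand) held 1 ACGTG 60 bases before it, and that of the inner start (chr2:11502091-11502340, minus strand) held GCGTG and the palindrome CACGTG.
Hif3a: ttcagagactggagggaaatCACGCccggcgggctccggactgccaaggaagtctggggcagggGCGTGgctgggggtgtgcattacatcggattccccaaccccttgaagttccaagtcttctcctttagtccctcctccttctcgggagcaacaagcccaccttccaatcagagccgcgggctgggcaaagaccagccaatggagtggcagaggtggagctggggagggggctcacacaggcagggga
Pfkfb3 outer start: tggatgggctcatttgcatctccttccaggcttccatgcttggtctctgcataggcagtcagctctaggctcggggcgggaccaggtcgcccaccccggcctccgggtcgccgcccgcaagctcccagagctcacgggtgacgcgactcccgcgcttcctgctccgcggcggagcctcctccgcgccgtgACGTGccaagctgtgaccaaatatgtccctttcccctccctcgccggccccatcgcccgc
Pfkfb3 inner start: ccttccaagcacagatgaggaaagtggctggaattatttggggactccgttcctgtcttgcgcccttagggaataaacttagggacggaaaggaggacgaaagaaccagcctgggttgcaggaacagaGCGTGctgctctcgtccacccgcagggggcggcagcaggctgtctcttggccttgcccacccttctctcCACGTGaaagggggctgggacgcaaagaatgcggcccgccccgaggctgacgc
For comparison, the 45 bases around matches are given for 4 genes with no called difference between time points. They are Slc2a1 (chr4:119108689-119108733, plus strand, 36 bases before the start), Egln1 (chr8:124949298-124949342, minus strand, 68 bases before it), Egln3 (chr12:54204079-54204123, minus strand, 229 bases before it) and Hif1a (chr12:73907777-73907821, plus strand, 70 bases before it).
Slc2a1: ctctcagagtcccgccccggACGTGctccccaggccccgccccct
Egln1: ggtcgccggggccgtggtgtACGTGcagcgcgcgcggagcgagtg
Egln3: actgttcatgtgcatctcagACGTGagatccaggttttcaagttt
Hif1a: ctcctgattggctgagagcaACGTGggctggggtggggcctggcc
The same core motif stood before genes with and without a called difference.

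Among the HIF alpha subunits, Hif1a and Epas1 differed little across the time course while Hif3a was several-fold higher at 3d than at 0d. Hif1a (chromosome 12, 73907867 to 73947530, plus strand, mm10) encodes the alpha subunit found in most cells. It had 98.2 and 96.6 CPM at 0d, 99.0 and 94.6 CPM at 1d, 103 and 98.8 CPM at 3d, and 102 and 96.3 CPM at 30d. The highest library exceeded the lowest by 1.08 times, and the libraries of different days overlapped except that both of 3d lay just above both of 0d. Epas1 (chromosome 17, 86753864 to 86833410, plus strand) encodes HIF-2 alpha, which is prominent in endothelial cells, and it ranged from 195 to 214 CPM with a ratio of highest to lowest of 1.10.

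Neither gene passed edgeR's quasi-likelihood test in any of the 6 comparisons between time points, with adjusted p of at least 0.840 for Hif1a and 0.716 for Epas1. The 95% intervals of their log2 fold changes lay between -0.13 and 0.16 for Hif1a and between -0.13 and 0.15 for Epas1 over all 6 comparisons. Per counted exon length, the ratio of Epas1 to Hif1a in TPM (counts scaled to counted exon length and library) ran from 1.79 to 1.87 over the 8 libraries. Reads were counted without regard to strand, and exons of another annotated gene on the opposite strand lie under 6.93% of the counted exon bases of Hif1a, so a part of its count may belong there.

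Hif3a (chromosome 7, 17030993 to 17062427, minus strand) encodes HIF-3 alpha, some forms of which restrain the other alpha subunits. It had 1.10 and 1.37 CPM at 0d, 2.07 and 1.94 CPM at 1d, 7.51 and 7.29 CPM at 3d, and 4.94 and 1.91 CPM at 30d. Both 3d libraries lay above every other library, and the 30d libraries differed from each other, replicate 1 being high and replicate 2 close to the 1d libraries. These CPM rest on raw counts of 58 and 84 at 0d and 490 and 533 at 3d, so counting error is small beside the difference.

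The fitted 3d level of Hif3a was 5.98-fold that at 0d (log2 fold change 2.58, SE 0.37, 95% interval 1.75 to 3.41), and Hif3a was among the genes called there. Direct comparisons of 3d with the other days did not pass edgeR's test. They gave a log2 fold change of 1.88 (SE 0.36, adjusted p = 0.0835) over 1d and of -1.12 (SE 0.34, adjusted p = 0.193) for 30d against 3d. DESeq2 called both (adjusted p = 3.26e-05 and 0.0408), and edgeR called both without replicate 1 of 30d, at 1.88 (adjusted p = 6.84e-05) and -1.95 (adjusted p = 0.000499). Without replicate 2 of 30d the difference between 30d and 3d was -0.59 and did not pass (adjusted p = 0.277). It also called the step from 1d to 3d without replicate 2 of 30d, at 1.88 (adjusted p = 5.55e-05), and with those groups fitted alone (adjusted p = 3.21e-07). The 3d against 0d call was kept with those groups fitted alone. It was lost in limma-voom (adjusted p = 0.0581) and when a library of 0d, 1d or 3d was left out. The log2 fold change was then 2.43 and 2.75 without replicate 1 or 2 of 0d, 2.58 without either 1d library, and 2.56 and 2.60 without replicate 1 or 2 of 3d, with adjusted p of 0.0993 to 0.209 in edgeR.

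At 30d the mean level of Hif3a was 3.42 CPM ± 2.14 (SD, n = 2) against 1.23 CPM ± 0.19 (SD, n = 2) at 0d. The log2 fold change of 1.46 (SE 0.38) did not pass edgeR's test (adjusted p = 0.184), and its size depended on which 30d library was kept. It was 0.63 without replicate 1 and 1.99 without replicate 2, and only the latter passed (adjusted p = 0.000591). DESeq2 called the difference between 30d and 0d with both libraries (adjusted p = 0.00938). Against 1d the 30d level gave a log2 fold change of 0.76 with both libraries (edgeR adjusted p = 0.455), -0.069 without replicate 1 (adjusted p = 0.905) and 1.30 without replicate 2 (adjusted p = 0.00881), so that only the last passed. Replicate 1 had 2.58 times the level of replicate 2, and of 4235 genes with a mean of 1 to 10 CPM, 96 (2.27%) differed between these libraries by at least as much. Replicate 1 is the library with the high red blood cell and adipocyte sums given above, and the part of those cells in the Hif3a level was not tested.

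Arnt (chromosome 3, 95434390 to 95497239, plus strand) encodes the beta subunit with which each alpha subunit pairs. It had 29.7 and 27.3 CPM at 0d, 29.5 and 24.7 CPM at 1d, 26.3 and 29.5 CPM at 3d, and 33.4 and 37.8 CPM at 30d. Both 30d libraries lay above all 6 others, and the first 3 time points overlapped. The log2 fold changes of 30d were 0.32 (SE 0.10, adjusted p = 0.225) against 0d, 0.35 (SE 0.10, adjusted p = 0.123) against 3d and 0.39 (SE 0.10, adjusted p = 0.129) against 1d, and none passed edgeR's test. DESeq2 called the comparisons with 3d and 1d (adjusted p = 0.0488 and 0.0337), as did edgeR without the filter on low counts (adjusted p = 0.0329 and 0.0241). In edgeR, leaving out replicate 1 of 30d gave calls in the same comparisons, at log2 fold changes of 0.44 against 3d (adjusted p = 0.0372) and 0.48 against 1d (adjusted p = 0.0334). Leaving out replicate 1 of 1d gave a call of 0.53 against 1d (adjusted p = 0.0497).

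**Figure D1:**
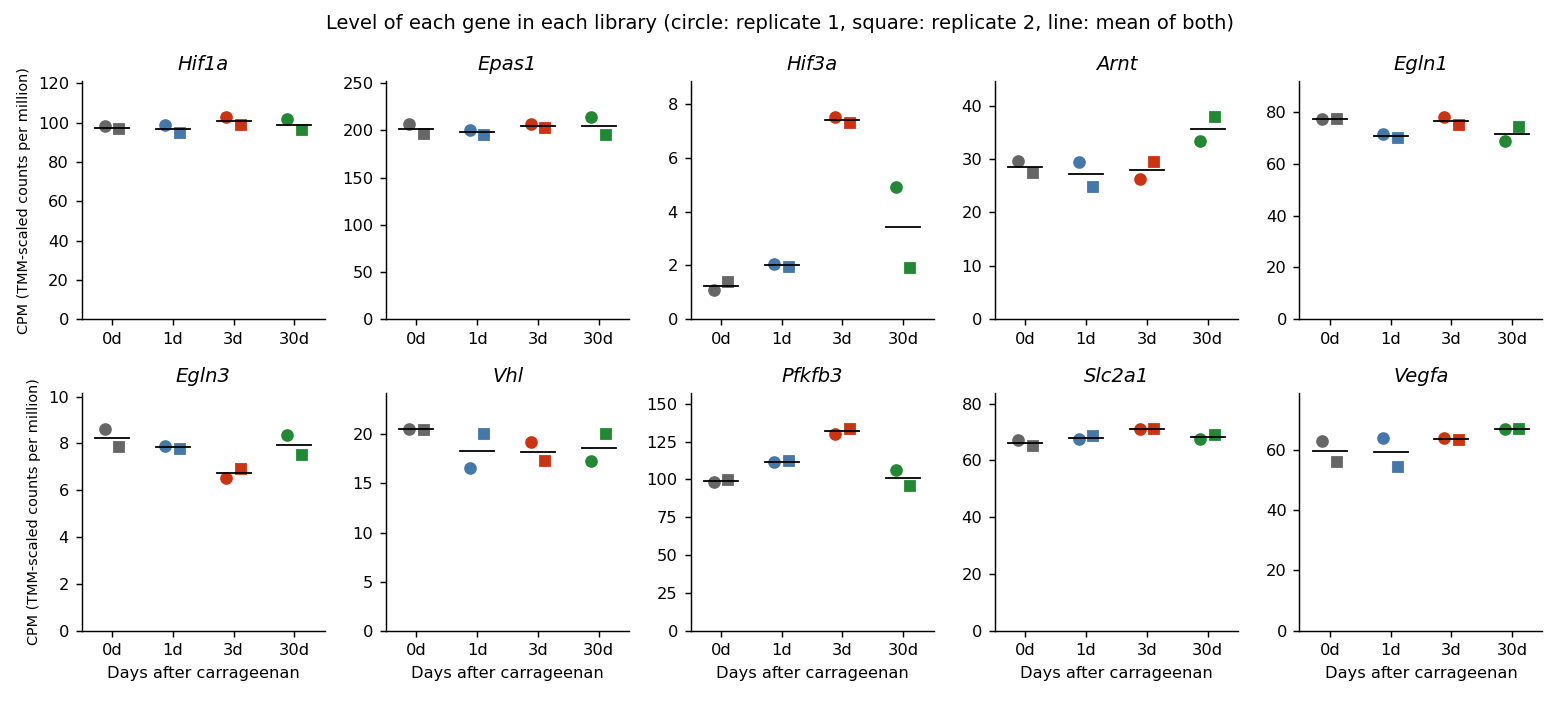
CPM of each of the 10 genes (vertical axes, each from 0) by day (horizontal axes), with 1 point per library and a line at the mean of both. Both 3d libraries of Hif3a (7.51 and 7.29 CPM) and of Pfkfb3 (130 and 133 CPM) lie above every other library, and the libraries of Hif1a and Epas1 lie close together on all days.

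The genes that mark HIF alpha subunits for degradation did not pass the test at any time point. Egln1 (chromosome 8, 124908587 to 124949254, minus strand), the main oxygen sensor of the pathway, had 77.4 and 77.6 CPM at 0d, 71.7 and 69.9 CPM at 1d, 78.1 and 75.2 CPM at 3d, and 68.9 and 74.4 CPM at 30d. The 1d and 30d libraries lay below those of 0d, and the 3d libraries straddled them. The difference at 1d was -0.13 on the log2 scale (SE 0.06, unadjusted p = 0.032, edgeR adjusted p = 1.00), and its interval of -0.25 to -0.013 bounds its size.

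Egln3 (chromosome 12, 54178981 to 54203874, minus strand) is itself a gene that HIF induces in many tissues. It had 8.62 and 7.86 CPM at 0d, 7.90 and 7.78 CPM at 1d, 6.52 and 6.92 CPM at 3d, and 8.37 and 7.53 CPM at 30d. Both 3d libraries lay below all others, opposite to the order seen for Hif3a and Pfkfb3. Its 3d level differed from that of 0d by -0.29 on the log2 scale (SE 0.14, unadjusted p = 0.0499) and did not pass (edgeR adjusted p = 0.839). The TPM ratio of Egln1 to Egln3 was 9.10 and 8.25 at 3d and 6.25 to 7.50 in the other libraries.

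Vhl (chromosome 6, 113624021 to 113631633, plus strand) is the part of the ubiquitin ligase that recognises hydroxylated HIF. It had 20.5 and 20.4 CPM at 0d, 16.5 and 20.0 CPM at 1d, 19.2 and 17.3 CPM at 3d, and 17.2 and 20.0 CPM at 30d. The later libraries all lay below both of 0d, but those of the same later day lay further apart than the higher of them did from 0d. The log2 fold changes from 0d were -0.17 at 1d, -0.17 at 3d and -0.14 at 30d, with SE of 0.11 each and edgeR adjusted p of 0.652 to 1.00. With 1 library left out they ranged from -0.31 to -0.036 at 1d, from -0.25 to -0.090 at 3d and from -0.25 to -0.034 at 30d.

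Of the target genes, Pfkfb3 was higher at 3d than at 0d and lower again at 30d, while Slc2a1 and Vegfa passed the test in no comparison. Pfkfb3 (chromosome 2, 11471431 to 11553929, minus strand) encodes the enzyme that makes fructose 2,6-bisphosphate, an activator of glycolysis. It had 98.4 and 99.9 CPM at 0d, 111 and 112 CPM at 1d, 130 and 133 CPM at 3d, and 106 and 96.0 CPM at 30d. The 1d libraries lay between those of 0d and 3d without overlap, and those of 30d lay on both sides of the 0d pair.

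At 3d Pfkfb3 was 1.33-fold its 0d level (log2 fold change 0.41, SE 0.05, 95% interval 0.30 to 0.52) and was among the genes called. At 1d the log2 fold change was 0.17 (SE 0.05, unadjusted p = 0.00537), which did not pass edgeR's test (adjusted p = 0.520). Nor did the step from 1d to 3d, at 0.24 (SE 0.05, adjusted p = 0.0969). That step was called at 0.23 by DESeq2 (adjusted p = 0.0200), by edgeR without the filter on low counts (adjusted p = 0.0172) and with those groups fitted alone (adjusted p = 0.0031), and at 0.24 without replicate 1 or 2 of 30d (adjusted p = 0.0169 and 0.0183). At 30d Pfkfb3 fell by 0.38 on the log2 scale from 3d (SE 0.05, edgeR adjusted p = 0.00292), a comparison that shares the 3d libraries, and its difference from 0d was 0.028 on the log2 scale (95% interval -0.085 to 0.14). Leaving out a 3d library ended both calls. Without replicate 1 of 3d the log2 fold changes were 0.43 against 0d and -0.40 for 30d against 3d, and without replicate 2 they were 0.39 and -0.37, with adjusted p of 0.0659 to 0.156.

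Slc2a1 (chromosome 4, 119108745 to 119137329, plus strand), which encodes the glucose transporter GLUT1, had 67.1 and 65.1 CPM at 0d, 67.4 and 68.5 CPM at 1d, 71.1 and 71.1 CPM at 3d, and 67.6 and 69.1 CPM at 30d. All later libraries lay above both of 0d, the 3d pair highest. The 3d level lay 0.10 above that of 0d on the log2 scale (SE 0.05, edgeR adjusted p = 0.851), with an interval of -0.0049 to 0.21. Exons of another annotated gene on the opposite strand lie under 4.08% of its counted bases.

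Vegfa (chromosome 17, 46016993 to 46032377, minus strand), which encodes the main growth factor of blood vessels, had 62.8 and 56.0 CPM at 0d, 63.9 and 54.4 CPM at 1d, 63.9 and 63.2 CPM at 3d, and 66.7 and 66.8 CPM at 30d. The 30d libraries were the highest, and those of 0d and 1d overlapped. Against 0d the difference at 30d was 0.17 on the log2 scale (SE 0.07, unadjusted p = 0.0403, edgeR adjusted p = 0.384), and it was 0.25 and 0.086 without replicate 1 or 2 of 0d.

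**Figure D2:**
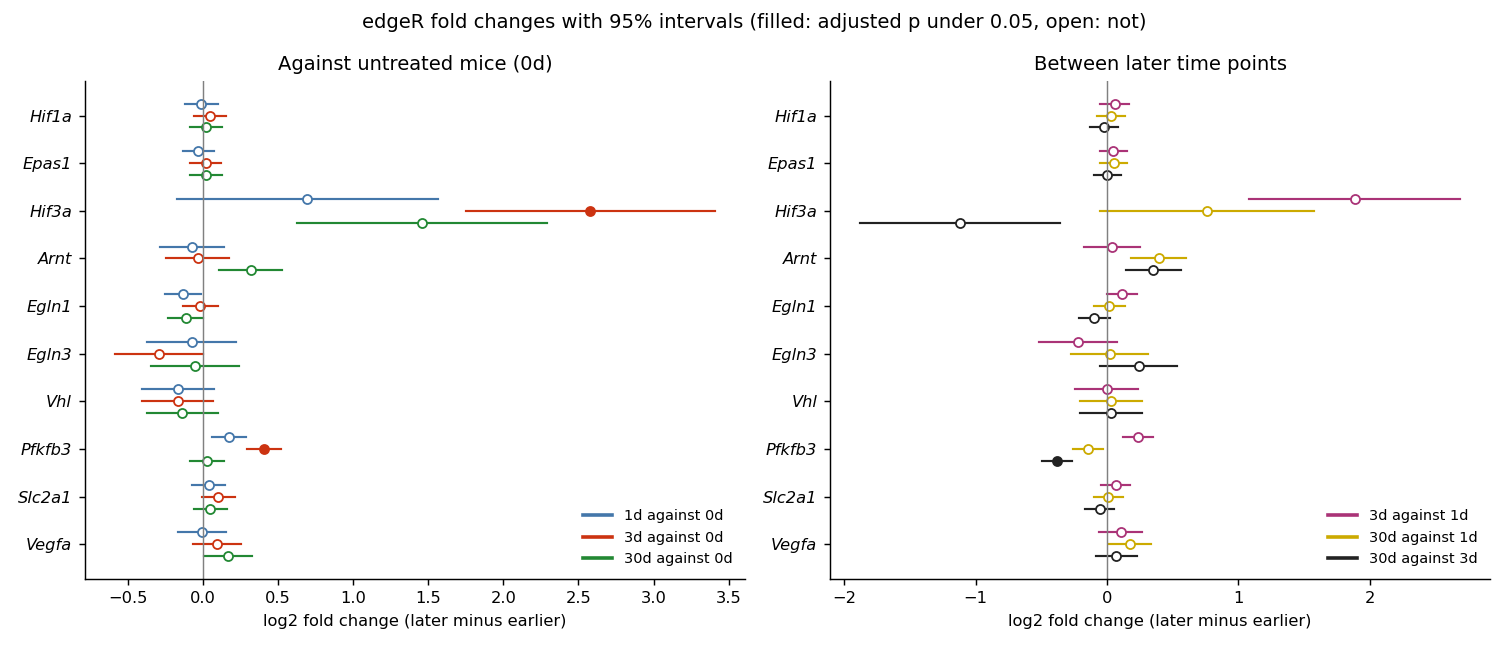
The log2 fold changes of the 10 genes (horizontal axes) with 95% intervals (lines) from the edgeR fit, for the comparisons with 0d on the left and those between later days on the right. Filled points passed the adjusted p of 0.05, which were Hif3a (2.58) and Pfkfb3 (0.41) for 3d against 0d and Pfkfb3 (-0.38) for 30d against 3d.

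Counted over the set, 2 of the 10 genes, Hif3a and Pfkfb3, were called at 3d against 0d, where 0.219% of all tested genes were called. Because the set was listed with that comparison known, nothing is read from the count. The libraries of 3d and 0d did not overlap for 7 of the 10 genes, beside 39.5% of all tested genes. At 30d against 3d, 1 of the 10 was called, Pfkfb3, where 0.935% of all tested genes were called, and since this comparison holds the same 3d libraries nothing is read from that count. In the test of any difference from 0d at any time point, 2 of the 10 were called, Hif3a (edgeR adjusted p = 0.0206) and Pfkfb3 (edgeR adjusted p = 0.0020), where 1.02% of all tested genes were called. That test includes the 3d and 0d libraries whose difference was known when the set was listed, so nothing is read from its count either.

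In the other comparisons edgeR called 0 of the 10. At 1d against 0d, where 0.346% of all genes were called, 2 of the 10 and 4.47% of all genes had an unadjusted p under 0.05, and DESeq2 (0.635% of all genes called) and limma-voom (0.283%) called 0. At 30d against 0d, with 0.0231% of all genes called, 3 of the 10 and 12.3% of all genes had such a p, DESeq2 called 1 (1.06% of all genes) and limma-voom 0. At 3d against 1d, with 0.289% called, 2 of the 10 and 4.24% of all genes had such a p, DESeq2 called 2 (0.635% of all genes) and limma-voom 0. At 30d against 1d, with 0.571% called, 3 of the 10 and 11.7% of all genes had such a p, DESeq2 called 1 (1.32% of all genes) and limma-voom 0. Without either 3d library no call was left among the 10 in any comparison. At 3d against 0d without 1 of the 0d or 1d libraries, Hif3a stood at 2.43 to 2.75 and Pfkfb3 at 0.40 to 0.42 (log2). In these fits edgeR lost the 3d against 0d call of Hif3a. Without replicate 1 of 30d it called 3 at 30d against 3d, 2 at 3d against 1d and 1 at 30d against 1d, beside 2.95%, 0.658% and 2.02% of all genes. Without replicate 2 of 30d it called 2 at 3d against 1d, 1 at 30d against 0d and 1 at 30d against 1d, beside 0.663%, 1.15% and 0.646% of all genes. Without replicate 1 of 1d it called 1 at 30d against 1d, beside 0.841%.

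Compared per counted exon length, the genes kept most of their order through the time course. On the TPM scale Epas1 was the highest on every day, at 99.4 TPM ± 4.78 (SD, n = 2) on 0d, and Slc2a1 the next, at 67.8 TPM. Egln1 (58.0 TPM), Hif1a (54.0 TPM) and Pfkfb3 (49.5 TPM) followed on 0d with libraries that did not overlap. Then came Vegfa at 37.6 TPM, Vhl at 19.8 TPM, Arnt at 17.2 TPM and Egln3 at 8.12 TPM, and Hif3a was the lowest on every day at 0.463 TPM on 0d.

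The order changed at a few places. Pfkfb3 moved from place 5 on 0d to place 3 at 1d and 3d, at 55.8 and 66.0 TPM, and was back at place 5 at 30d. Its libraries overlapped with those of Hif1a at 1d and with those of Egln1 and Hif1a at 30d. Hif1a stood above Egln1 at 1d and 30d and below it at 3d, with overlapping libraries each time, so these neighbours did not differ beyond their spread. Arnt stood above Vhl only at 30d, at 22.0 against 18.4 TPM, and the libraries of these genes overlapped at 1d and 3d. Hif1a exceeded Hif3a by 132 and 104 times at 0d, by 70.4 and 72.0 times at 1d and by 20.1 and 20.0 times at 3d and by 30.3 and 74.2 times at 30d, so Hif3a remained a small share of the alpha subunit transcripts where it was highest.

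**Figure D3:**
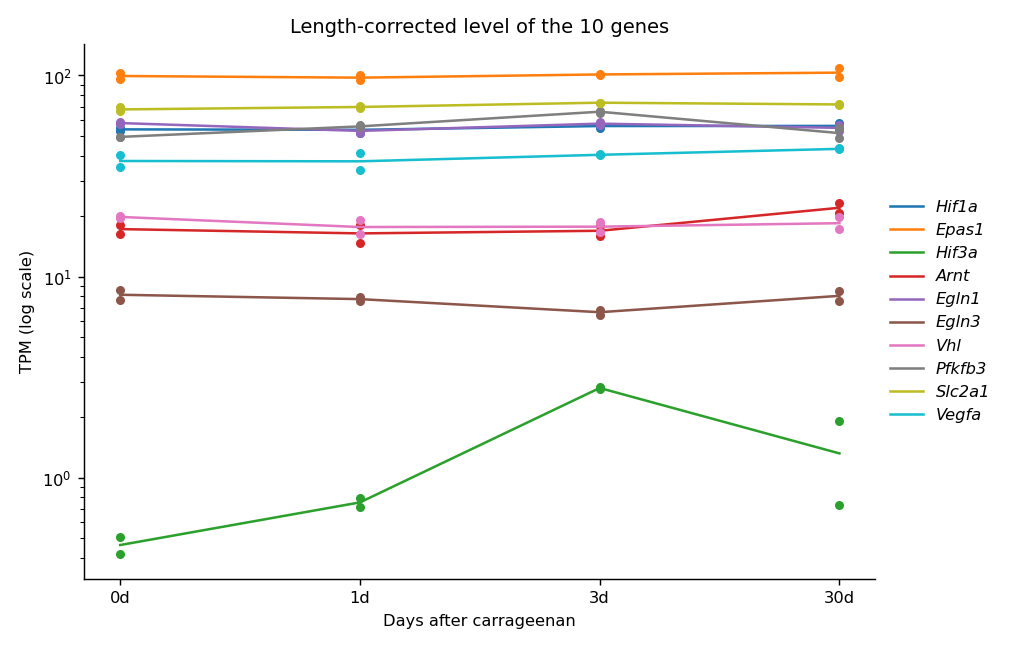
TPM of the 10 genes on a log axis (vertical) by day (horizontal), with 1 point per library and lines joining the means. Epas1 is the highest and Hif3a the lowest on every day, and Hif3a is highest at 3d with a mean of 2.79 TPM.

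The other genes of oxygen sensing were taken from 5 lists of 94 genes in all. They were HIF regulators (16), glycolysis enzymes (17), genes of glucose and lactate handling (18), other hypoxia targets (30) and genes of VEGF signalling and vessel growth (13), and all 94 were tested. Against 0d, edgeR called 0 of the 94 at 1d, 3d and 30d, where 7, 9 and 15 had an unadjusted p under 0.05, beside 4.47%, 5.94% and 12.3% of all tested genes. DESeq2 called 0, 0 and 3 of them, beside 0.635%, 0.629% and 1.06% of all genes. limma-voom called none, beside 0.283%, 0.144% and 0.0115%. In edgeR some of them were called at 3d or 30d when 1 of the 0d or 30d libraries was left out. The share of all genes called changed with the library left out as well. Fitted with the compared groups alone, 1 was called at 3d, beside 0.715% of all genes. At 30d 1 was called without the filter on low counts and 1 with a replicate block, beside 0.861% and 0.398%. The median log2 fold change of the 94 genes at 3d was 0.017, beside -0.0021 for all tested genes, with 52 above 0 and 42 below. By list the medians at 3d were 0.0042 for the HIF regulators, 0.024 for the glycolysis enzymes, 0.037 for glucose and lactate handling, 0.059 for the other hypoxia targets and -0.022 for vessel growth.

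From 3d to 30d, 2 of the 94 genes passed edgeR's test, beside 0.935% of all tested genes, and both fell, as did 126 of the 162 called over all genes. Ddit4, an inhibitor of mTOR signalling that responds to hypoxia and to glucocorticoids, had 68.1 and 71.4 CPM at 0d, 61.1 and 70.7 CPM at 1d, 84.3 and 86.2 CPM at 3d, and 51.8 and 60.9 CPM at 30d. It fell by 0.60 on the log2 scale (SE 0.08, adjusted p = 0.00403), and its 3d libraries were the highest of the 8. Ldha, the lactate dehydrogenase subunit that favours lactate formation, fell by 0.21 (SE 0.04, adjusted p = 0.0287), from 369 and 368 CPM to 320 and 316 CPM. The Ddit4 call was lost without replicate 1 or 2 of 3d, at -0.61 and -0.58. The Ldha call was lost without replicate 1 or 2 of 3d, at -0.21 and -0.22, without replicate 2 of 30d, at -0.20, and without robust estimation (adjusted p = 0.0603). Of the 94 genes none was then called without either 3d library, and 5 were without replicate 1 of 30d. Over all genes these settings called 0.0674% and 0.124% without replicate 1 or 2 of 3d and 2.95% without replicate 1 of 30d.

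A list of 14 glucocorticoid-responsive genes, which the adrenal stress hormone raises in many tissues, was set beside the members. Its median log2 fold change was 0.49 at 3d against 0d, where all tested genes had -0.0021, and 0.024 at 1d and 0.013 at 30d. The metallothionein gene Mt2 had 17.0 and 16.8 CPM at 0d and 34.3 and 28.5 CPM at 1d, and Mt1 had 34.1 and 33.7 CPM at 0d and 45.1 and 49.0 CPM at 1d. Their 1d log2 fold changes of 0.89 and 0.47 did not pass edgeR's test (adjusted p = 0.428 and 0.557), but both genes were called in DESeq2, with those groups fitted alone and without replicate 1 or 2 of 30d. At 3d edgeR called 2 of the 14, where 0.219% of all tested genes were called, both higher, the ion transport kinase Sgk1 (0.70, SE 0.10, adjusted p = 0.0152) and the leucine zipper gene Tsc22d3 (0.44, SE 0.06, adjusted p = 0.0133). From 3d to 30d it called 4 of the 14, where 0.935% of all tested genes were called, all lower, namely Sgk1 (-0.74), Tsc22d3 (-0.42) and the metallothioneins Mt1 (-0.90) and Mt2 (-1.40), with adjusted p of 0.00491, 0.00888, 0.0224 and 0.0385. All 4 calls were lost without replicate 1 of 3d, at -0.78, -0.42, -0.95 and -1.40, and without replicate 2 of 3d, at -0.70, -0.41, -0.84 and -1.41. That of Sgk1 was lost without replicate 2 of 30d (-0.71), that of Mt1 without replicate 1 of 0d (-0.90), and that of Mt2 without either 0d library (-1.40 each) or replicate 2 of 1d (-1.40). With the compared groups alone the calls of Mt1 and Mt2 were lost (adjusted p = 0.0849 and 0.0932), that of Mt1 was also lost with a replicate block (adjusted p = 0.0573), and that of Mt2 with library totals as the only scaling (adjusted p = 0.0584) and without the filter on low counts (adjusted p = 0.0926).

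The summed level of the 14 genes was 619 and 592 CPM at 0d, 617 and 675 CPM at 1d, 802 and 805 CPM at 3d, and 658 and 578 CPM at 30d. The 3d libraries were thus the highest in this sum as they were for Hif3a and Pfkfb3, and none of the 14 genes was at 0 in any library. The part of a glucocorticoid response, time of day or handling in the levels of Hif3a and Pfkfb3 was not tested. At 3d against 0d, 7 of the 14 were called without replicate 1 of 30d, 6 without replicate 2 of 30d, 7 with those groups fitted alone and 5 in DESeq2, beside 0.680%, 0.624%, 0.715% and 0.629% of all genes, while 1 was called without either 0d library and no call was left without either 3d library. At 30d against 3d, 7 were called without replicate 1 of 30d (2.95% of all genes), 2 with those groups fitted alone (1.60%) and 2 without replicate 1 of 0d, and no call was left without either 3d library. The Sgk1 call at 3d was lost without replicate 1 or 2 of 3d, at 0.74 and 0.66, and that of Tsc22d3 without replicate 1 or 2 of 0d, at 0.43 and 0.45, or without replicate 1 or 2 of 3d, at 0.44 each.

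**Figure D4:**
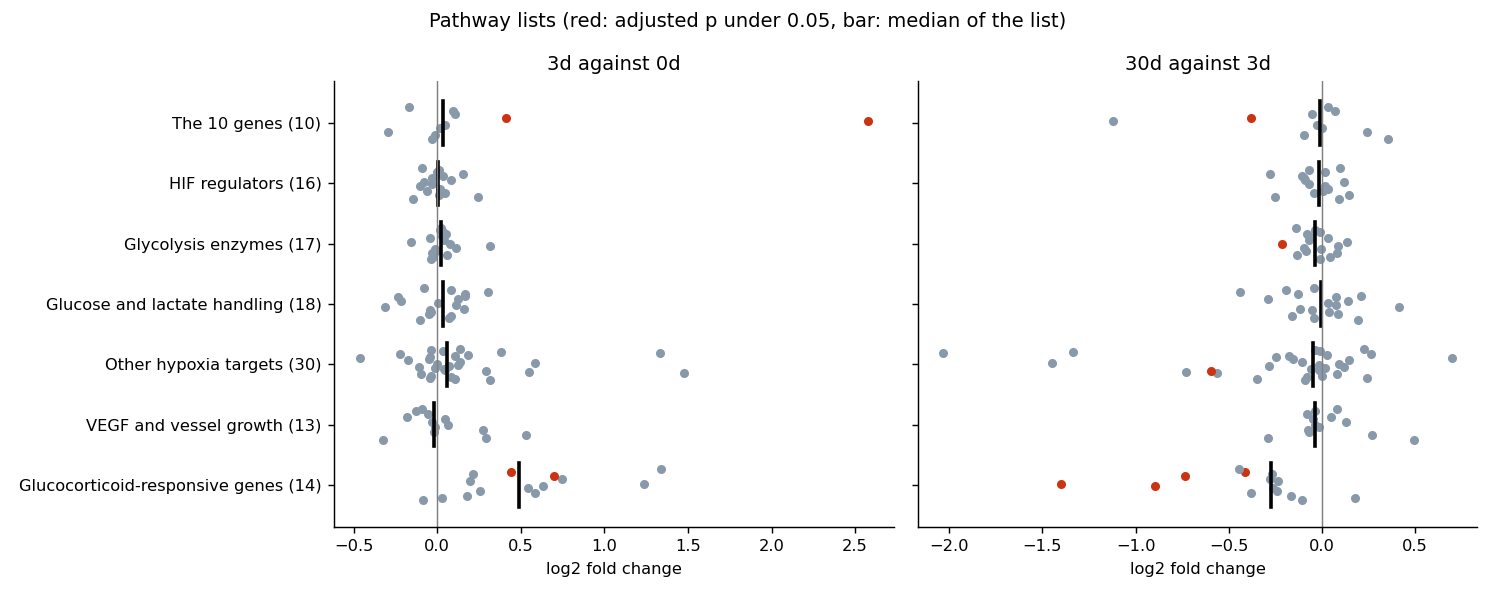
The log2 fold change of each gene (points) for 3d against 0d and 30d against 3d, by list with the number of genes in brackets, and a bar at each list's median. The medians of the 5 oxygen-sensing lists lie near 0 at 3d, that of the glucocorticoid-responsive genes lies at 0.49, and red points passed edgeR's adjusted p of 0.05.

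Endothelial and mural markers, the vessel cells in which Epas1 is prominent, differed little between libraries as sums. The 10 endothelial markers summed to 183 to 228 CPM and the 8 mural markers to 158 to 178 CPM, with no marker at 0 in any library. At 3d the endothelial sums were 228 and 217 CPM against 216 and 206 CPM at 0d, and 1 of the 10, the surface protein gene Ly6c1, rose (0.64, edgeR adjusted p = 0.0377), a call that was lost without any 1 library of 0d, 1d or 3d, in limma-voom (adjusted p = 0.0652), without robust estimation (adjusted p = 0.0869) and with library totals as the only scaling (adjusted p = 0.0601). Its log2 fold change was 0.65 and 0.64 without replicate 1 or 2 of 0d, 0.64 without either 1d library, and 0.58 and 0.71 without replicate 1 or 2 of 3d. The adipocyte markers, at 16.9 and 17.2 CPM at 3d, lay between the 8.88 and 22.0 CPM of 0d.

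Other cell type lists held called genes at 3d against 0d, where 0.219% of all tested genes were called. All 8 skeletal muscle genes had log2 fold changes below 0, with a median of -0.70. They also lay below 0 at 1d and 30d against 0d, with medians of -1.17 and -0.57. Their sums were 209 and 145 CPM at 0d and 124 and 123 CPM at 3d. At 1d the sums were 98.6 and 128 CPM and at 30d 175 and 92.6 CPM. None of these genes was at 0 in any library. The called genes among them at 3d were the myosin gene Myh1 (-1.61, edgeR adjusted p = 0.0237) and Pvalb (-0.33, edgeR adjusted p = 0.0237), which proprioceptive neurons also express. Of the 13 sensory neuron markers, 2 were called higher, the CGRP gene Calca (0.32, edgeR adjusted p = 0.0237) and the sodium channel gene Scn10a (0.22, edgeR adjusted p = 0.0499). The list as a whole went both ways, with 8 markers above 0, 5 below and a median of 0.015. Of the 8 macrophage markers, the chemokine receptor gene Cx3cr1 was called lower (-1.02, edgeR adjusted p = 0.0079). With 3 macrophage markers above 0 and 5 below, their median was -0.018, and their sums were 112 and 95.5 CPM at 0d and 95.4 and 100.3 CPM at 3d.

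These calls were all lost without either 3d library. The log2 fold changes without replicate 1 or 2 of 3d were -1.73 and -1.48 for Myh1, -0.32 and -0.33 for Pvalb, 0.35 and 0.30 for Calca, 0.21 and 0.23 for Scn10a, and -1.10 and -0.94 for Cx3cr1. Without replicate 1 of 0d those of Myh1 (-1.15), Pvalb (-0.32), Calca (0.25) and Scn10a (0.18) were lost, without replicate 2 of 0d that of Pvalb (-0.33), and without either 1d library that of Scn10a (0.22). Without robust estimation the call of Cx3cr1 was the only 1 of the 5 kept. limma-voom and the newer quasi-likelihood method lost those of Myh1 and Scn10a, and RLE size factors, library totals and the filter of 1 CPM lost that of Scn10a.

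From 3d to 30d, where Pfkfb3, Ddit4, Ldha and the glucocorticoid-responsive genes were called, cell type markers were called as well. Calca (-0.43, edgeR adjusted p = 0.0020), Ly6c1 (-0.60, edgeR adjusted p = 0.0249) and Apoe (-0.23, edgeR adjusted p = 0.0128) were lower and Myh1 (1.35, edgeR adjusted p = 0.0292) was higher. Of the 13 sensory neuron markers 3 lay above 0 and 10 below, and of the 10 endothelial markers 3 and 7. Of the 8 skeletal muscle genes 4 lay above 0 and 4 below, with a median of 0.086. Without replicate 1 or 2 of 3d the calls of Ly6c1 (-0.53 and -0.66), Apoe (-0.23 each) and Myh1 (1.47 and 1.22) were lost, and without replicate 2 of 30d that of Ly6c1 (-0.41). Those of Ly6c1 and Myh1 were also lost without robust estimation (adjusted p = 0.0552 and 0.0582), that of Ly6c1 with those groups fitted alone (adjusted p = 0.0656) and that of Myh1 in limma-voom (adjusted p = 0.0877). The part of these cells in the Hif3a and Pfkfb3 levels was not tested.

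The genes whose levels followed those of Hif3a and Pfkfb3 most closely were sought among 14644 genes with a mean of at least 1 CPM, by the root mean square (RMS) difference of log2 CPM after each gene's mean over the 8 libraries was removed. For Hif3a, whose own log2 CPM had an SD of 1.07, the closest were the interferon-induced membrane gene Ifitm6 (RMS difference 0.45), the transcription factor gene Zbtb16 (0.46), the monooxygenase gene Fmo2 (0.48), the matricellular gene Wisp2 (0.49) and the collagenase gene Mmp8 (0.51). Zbtb16, which is also in the glucocorticoid list, had 4.48 and 4.14 CPM at 0d, 4.73 and 3.65 CPM at 1d, 10.76 and 11.04 CPM at 3d, and 11.7 and 4.38 CPM at 30d. Like Hif3a it was high in both 3d libraries and in replicate 1 of 30d, and low in replicate 2 of 30d.

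For Pfkfb3, with an SD of 0.18, the closest genes were the neuronal pentraxin gene Nptx1 (RMS difference 0.048), the progestin receptor gene Paqr8 (0.055), the p75 neurotrophin receptor gene Ngfr (0.059), the survival gene Bcl2l1 (0.062) and the phosphatase gene Ptpn9 (0.063). Ngfr had 819 and 900 CPM at 0d, 918 and 965 CPM at 1d, 1065 and 1044 CPM at 3d, and 850 and 817 CPM at 30d. Its 3d libraries were the highest and its 30d libraries overlapped with those of 0d, the order seen for Pfkfb3. These genes were picked for their likeness over the same 8 libraries, so their likeness is a description with no test.

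**Figure D5:**
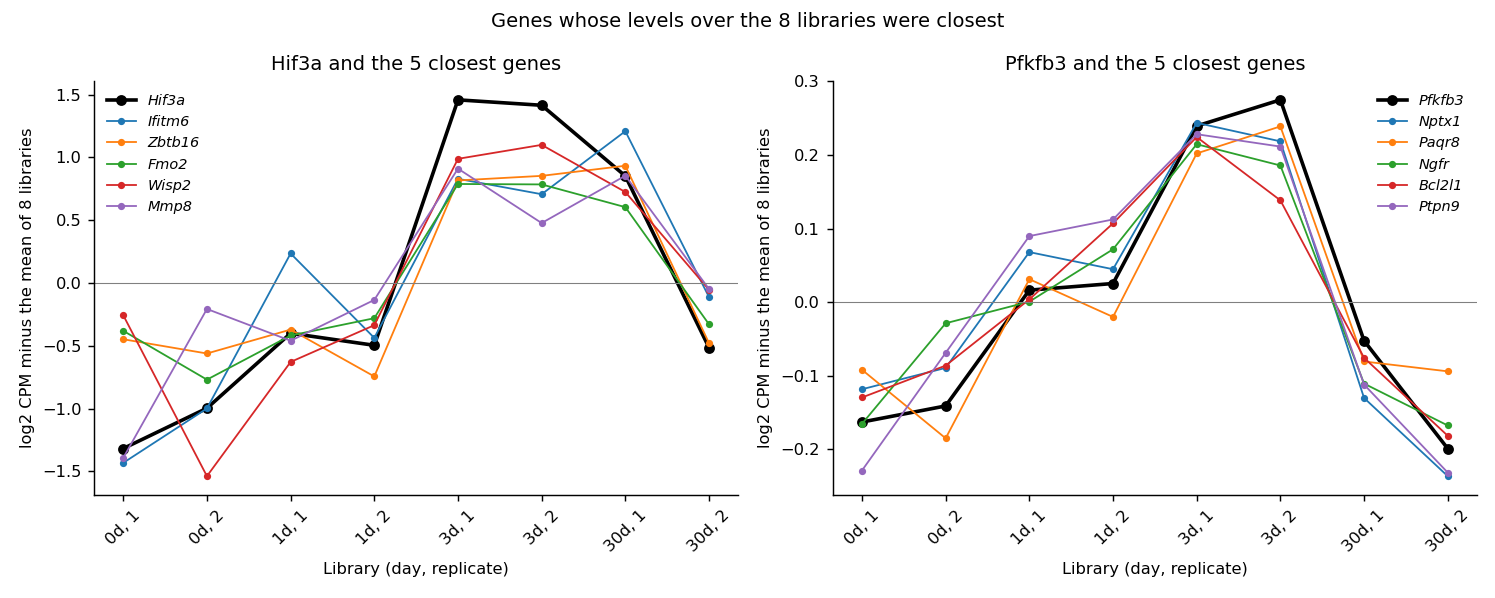
The log2 CPM of Hif3a (left) and Pfkfb3 (right) in each library, less the mean of the 8 libraries, in black, with the 5 closest genes in colour. The lines only link the points of a gene. Hif3a and its closest genes are high in both 3d libraries and in replicate 1 of 30d, while Pfkfb3 and its closest genes are highest at 3d and low at 0d and 30d.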

How the data were processed

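RNA sequencing of mouse dorsal root ganglia gave 2 libraries at each of 0d, 1d, 3d and 30d, grouped by the sample titles. Reads were trimmed by the authors (cutadapt 2.10), mapped to mm10 (STAR 2.7.5a) and assigned to the exons of UCSC genes (featureCounts 2.0.1), without strand, without reads mapping to several places, and once for each overlapping gene. The deposited values are raw counts per gene, not normalized. No member overlapped another counted gene.

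The members and gene lists were chosen with earlier results of these data known. With R 4.3.3 and edgeR 4.0.16, genes were filtered by filterByExpr (17328 of 24421 kept) and scaled by TMM (factors 0.993 to 1.01). A quasi-likelihood fit with robust estimation covered all 8 libraries (common biological coefficient of variation 8.85%), with 6 comparisons between time points and a test of any difference. P-values were adjusted over all tested genes by the Benjamini-Hochberg method, with calls at adjusted p under 0.05. Each SE was obtained as the absolute log2 fold change over the root of its F statistic. CPM are TMM-scaled, log2 CPM for likeness used a prior count of 2, and TPM were computed from the counts and the table's exon lengths. Replicates differed beyond counting noise (chi-square per degree of freedom 7.22 to 25.6), and p-values measure the spread between pools. With 2 libraries per group an exact permutation test of 1 gene cannot pass the threshold.

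All members, up to 4 called genes of each pathway list and the 5 genes closest to Hif3a and to Pfkfb3 were named by rule. The cell type markers Ly6c1, Calca, Scn10a, Cx3cr1 and Myh1 were named after their values were seen. Alternatives were RLE size factors, library totals, no filter, a filter of 1 CPM in 2 libraries, DESeq2 1.42.0, limma-voom (limma 3.58.1), other dispersion settings, the compared groups alone, a replicate block and each library left out. Promoter sequences came from RefSeq. Of the 50-base words of each member's transcript, at most 2.18% (Hif1a) were shared with another gene. Results for some marker genes are not reported here.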

Additional observations from a re-analysis of the deposited data

Results flagged for a closer look

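Among the 10 genes, the oxygen-sensing lists and the glucocorticoid-responsive list, the levels of 7 genes differed between later time points by edgeR's direct test, with p-values adjusted over all tested genes. Pfkfb3 differed by -0.38 on the log2 scale between 30d and 3d (adjusted p = 0.00292). It was listed with its high 3d level known, so this value is a description, and the call was lost without replicate 1 or 2 of 3d (adjusted p = 0.0659 and 0.0964). Of the hypoxia targets and glycolysis enzymes, Ddit4 differed by -0.60 (adjusted p = 0.00403) and Ldha by -0.21 (adjusted p = 0.0287) between the same days. Of the glucocorticoid-responsive genes, Sgk1 differed by 0.62 between 3d and 1d (adjusted p = 0.0219) and by -0.74 between 30d and 3d (adjusted p = 0.00491). Between 30d and 3d Tsc22d3 differed by -0.42 (adjusted p = 0.00888), Mt1 by -0.90 (adjusted p = 0.0224) and Mt2 by -1.40 (adjusted p = 0.0385). Without replicate 1 of 1d the Sgk1 difference between 3d and 1d was 0.47, and without replicate 1 or 2 of 3d it was 0.66 and 0.58, none of them called. All of these comparisons share the 3d libraries, so they are not independent of each other.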

How the results depend on the processing

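Each group had 2 pools. The 10 genes were recomputed under 18 other settings, 8 of which left out 1 library. The log2 fold change of Hif3a at 3d against 0d stayed between 2.43 and 2.75 and was called in 11 of the 18. That of Pfkfb3 stayed between 0.39 and 0.43 and was called in 16. Hif3a has few counts at 0d, and its 30d level depends on the library kept. The cause of the changes below was not tested.

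Of the 10 genes, limma-voom called 1 at 3d against 0d and 1 at any time point, beside 0.144% and 0.681% of all genes. DESeq2 called 1 at 30d against 0d, 2 at 3d against 1d, 3 at 30d against 3d and 1 at 30d against 1d. Over all genes it called 1.06%, 0.635%, 2.18% and 1.32% there. Without a filter 1 was called at 3d against 1d, 2 at 30d against 3d and 1 at 30d against 1d. The shares of all genes were then 0.482%, 1.74% and 1.04%. With the compared groups alone 2 were called at 3d against 1d, beside 1.55%. With 1 library left out the numbers ranged from 0 to 2 at 3d against 0d, at 3d against 1d and at any time point, from 0 to 1 at 30d against 0d and 30d against 1d, and from 0 to 3 at 30d against 3d.

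Of all genes, the numbers called at 1d against 0d, 3d against 0d, 30d against 0d, 3d against 1d, 30d against 3d, 30d against 1d and at any time point were 95, 89, 177, 99, 358, 213 and 463 without a filter, and 110, 109, 184, 110, 378, 229 and 512 in DESeq2. The main numbers were 60, 38, 4, 50, 162, 99 and 177. limma-voom called 25 at 3d and 2 at 30d against 0d. Without robust estimation 20 were called at 3d against 0d, 0 at 30d against 0d (edgeR, with 2137 at an unadjusted p under 0.05) and 92 at 30d against 3d. With the compared groups alone the numbers were 121 at 3d against 0d, 0 at 30d against 0d (edgeR, with 1366 at an unadjusted p under 0.05), 260 at 3d against 1d and 273 at 30d against 3d. With 1 library left out they ranged, in the order above, from 26 to 111, 1 to 121, 1 to 202, 5 to 117, 12 to 525, 51 to 359 and 51 to 401.

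The sample titles do not say whether the replicate numbers pair the samples. Over the tested genes, same-numbered libraries of different days deviated together with a correlation of only -0.0144 to 0.0438. Such a value over all genes cannot exclude a shared effect on a few of them. With the replicate block 69 genes were called at 30d against 0d, 77 at 3d against 1d, 159 at 30d against 1d and 280 at any time point, and the calls of the 10 genes did not change.

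The sign changed in 41 of 1080 recomputed values of the 10 genes, none called in either fit and none larger than 0.14. All libraries were in the fit for Vhl at 3d against 1d in limma-voom (0.0021) and with the block (0.0031), and Epas1 at 30d against 3d in limma-voom (-0.0011). The rest came from leaving out 1 library, which gave the following ranges. At 1d against 0d they were -0.042 to 0.023 for Hif1a, -0.065 to 0.012 for Epas1, -0.21 to 0.051 for Arnt and -0.13 to 0.11 for Vegfa. For 3d against 0d they were -0.017 to 0.057 for Epas1, -0.12 to 0.048 for Arnt and -0.042 to 0.012 for Egln1. 30d against 0d gave -0.017 to 0.060 for Hif1a, -0.046 to 0.084 for Epas1, -0.13 to 0.024 for Egln3 and -0.049 to 0.099 for Pfkfb3. Those of 3d against 1d were -0.083 to 0.18 for Arnt, -0.13 to 0.14 for Vhl and -0.0082 to 0.23 for Vegfa. Between 30d and 3d they ran from -0.066 to 0.011 for Hif1a, -0.065 to 0.064 for Epas1 and -0.082 to 0.13 for Vhl. In the comparison of 30d against 1d they were -0.0084 to 0.069 for Hif1a, -0.017 to 0.11 for Epas1, -0.069 to 1.30 for Hif3a, -0.039 to 0.070 for Egln1, -0.059 to 0.095 for Egln3, -0.10 to 0.17 for Vhl and -0.0073 to 0.023 for Slc2a1.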
